A study of Mus musculus with 8 samples.

Results

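The feedback genes of FGF and ERK signalling considered here are Spry1, Spry2, Spry4, Spred1, Spred2, Dusp4, Dusp6, Etv4, Etv5 and Il17rd. Their probes were found by the gene name printed in the array files, which gave 19 of the 41174 probes on the array. All 10 genes were among the 17100 genes tested, and 17 of the 19 probes were measured above background. The groups were 4 pools of Arid3b-null embryos and 4 pools of wild-type embryos, all whole embryos at embryonic day 9.0 with 3 to 4 embryos in a pool. The product of Arid3b binds DNA through an AT-rich interaction domain, and the study sets embryos without it against wild type. The labels name neither the deleted part of the gene nor the strain, litter or sex of the embryos, and the main fit holds genotype only. Its p-values rest on the spread between pools, which limma draws toward that of the other genes. Whole embryos were used, so fewer cells of a type and less RNA per cell cannot be told apart.

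FGF ligands bind receptor tyrosine kinases, which pass the signal through adaptors and the Ras, Raf and MEK kinase cascade to ERK. Active ERK switches on genes whose products damp the same cascade, and transcripts of these genes are widely used as a readout of FGF signalling in the embryo. At this stage they are known to be strong near sources of FGF, such as the tailbud, the boundary between midbrain and hindbrain, the anterior neural ridge, the pharyngeal arches and the early limb field. Sprouty proteins (Spry) and the related Spred proteins block the pathway at or above Raf. Dusp4 and Dusp6 remove phosphate from ERK itself, in the nucleus and in the cytoplasm. Etv4 and Etv5 are ETS transcription factors of the Pea3 group that carry out part of the response, and Il17rd, also called Sef, is a membrane protein that restrains signalling from the receptor.

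Each array was read in 1 colour, and 59.9% to 64.1% of its probes were well above background. Values are log2 signals relative to the array's 75th percentile, so that 0 stands for the signal at that percentile, and a difference of 1 is a 2-fold change. The brightest measured probe stands for a gene unless another is named. Each difference is null minus wild type and is given with its standard error (SE) or the 95% interval of the limma fit. Adjusted p-values are Benjamini-Hochberg values over all genes, and a gene is called when its adjusted p is under 0.05. Pools 1 and 2 of each group lay on slide 1, and pools 3 and 4 on slide 2. Null pools always took positions 3 and 4 of a slide and wild-type pools positions 1 and 2, so position and genotype cannot be told apart. Y-linked transcript level, as a share of the highest pool, was 0.485, 0.791, 0.637 and 1 in null pools 1 to 4, against 0.0238, 0.788, 0.25 and 0.0267 in wild-type pools 1 to 4. The null pools therefore held more male RNA than 3 of the 4 wild-type pools. The part of sex in the results was not tested beyond a fit with this level as a covariate, chosen after seeing the data. Arid3b itself had signals of 1.89, 1.83, 1.85 and 2.48 in null pools 1 to 4, against 3.47, 3.29, 3.39 and 3.31 in wild-type pools, a difference of -1.35 ± 0.15 (SE, limma adjusted p = 0.00577). The dimmer Arid3b probes, well above background on all 8 arrays, had larger differences of -1.70 ± 0.17 and -1.73 ± 0.18 (SE). Their limma adjusted p over all measured probes was 0.00460 and 0.00542. Arid3b signal was thus lower in every null pool on each probe but not absent, and null pool 4 kept the most.

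No feedback gene passed the test. Of the 10 genes limma called 0, with 1 at an unadjusted p under 0.05 (Spred1), against a background of 4.2% of all genes called and 20.7% at an unadjusted p under 0.05. Each alternative to the scaling, the background correction, the probe filter or the value source likewise called 0 of them, as did each fit without a pool and the fits blocked by slide or by replicate number. Several of these could hardly have done otherwise. The other background correction (normexp) called 0 of all genes. Median scaling called 204 of all genes, no shift between arrays 157, no filter on dim probes 164 and the fits without a pool 93 to 626. The blocked fits called 8.01% (slide) and 13.7% (replicate number) of all genes. Mean signal was higher in the null pools for 6 genes (Spry1, Spry2, Spred1, Spred2, Dusp4 and Dusp6), against 48.7% of all genes, and lower for 4 (Spry4, Etv4, Etv5 and Il17rd). The median difference of the 10 was 0.094, beside -0.0068 over all genes, and under median scaling it was 0.0025, beside -0.098 over all genes. The median size of the difference, whatever its sign, was 0.138 for the 10 genes and 0.148 over all genes. Null and wild-type values overlapped for each of the 10, while 16.1% of all genes had groups that did not overlap. The 95% intervals give the range of change that the brightest probes allow. For 9 genes the whole interval on that probe lay within a 1.5-fold change in either direction, and Spry4 was the exception, with an interval of 0.449-fold to 1.93-fold. These intervals come from the fit on genotype only, so that of Spry4 includes its large difference between slides. The dimmer probes of Spry2 and Dusp4 have intervals that reach beyond 1.5-fold, as does the dimmer Spred1 probe with an outlying reading (log2 -1.27 to 4.00).

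**Figure D1:**
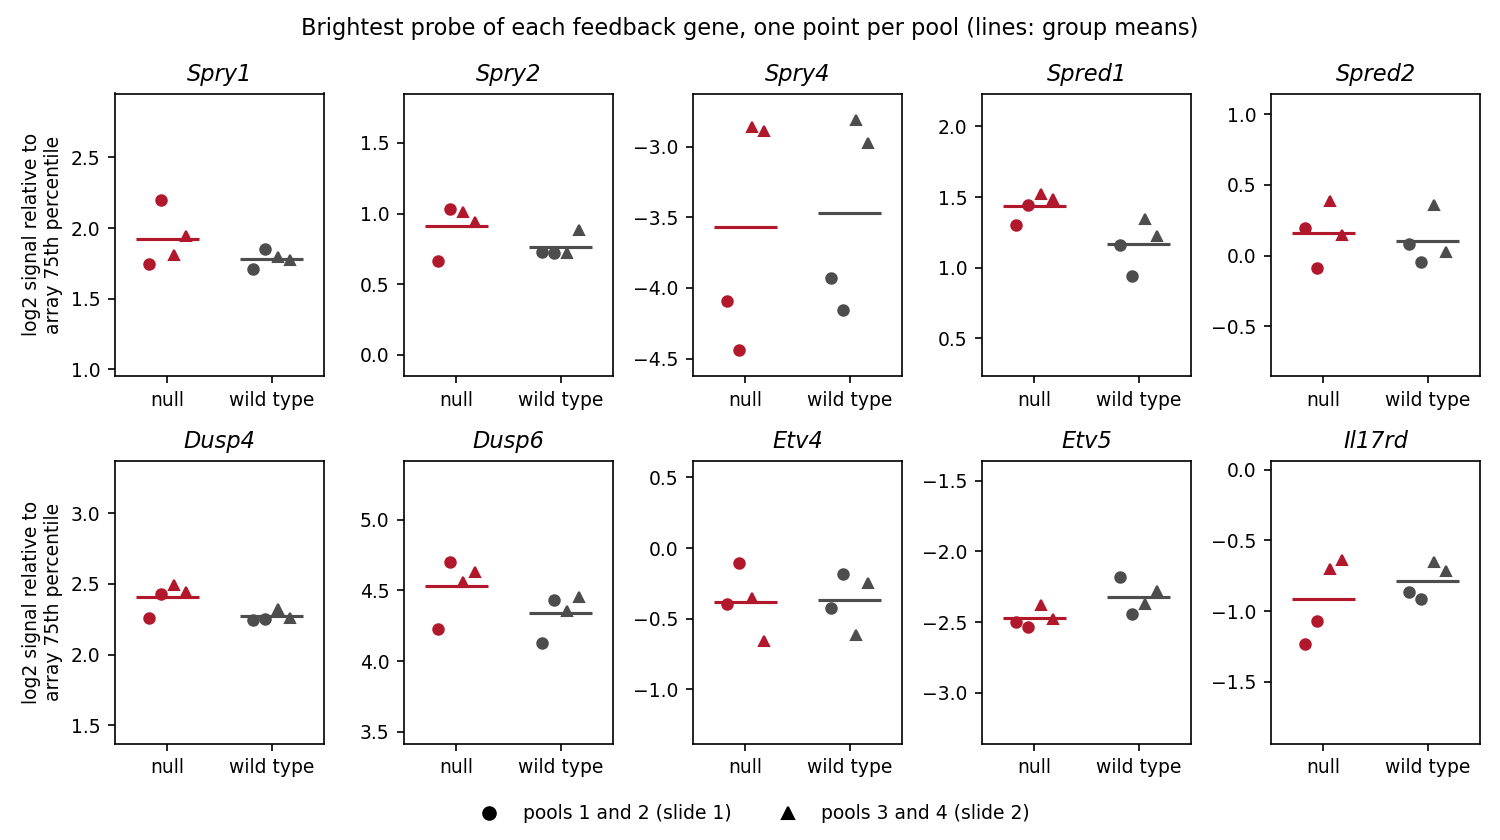
Log2 signal relative to the array's 75th percentile (vertical axes, each spanning 2 log2 units but with its own centre) for the brightest probe of each feedback gene, with the 4 null pools left and the 4 wild-type pools right. Circles are pools on slide 1, triangles pools on slide 2 and lines group means. The groups overlap in all 10 panels, and Spry4 separates by slide in both groups.

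**Figure D2:**
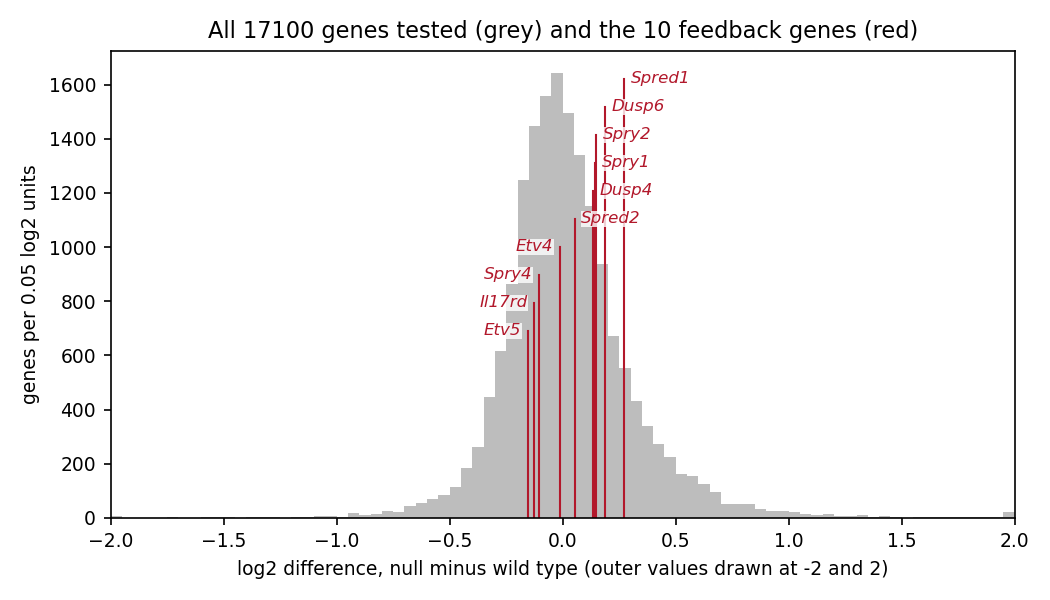
Histogram of the log2 difference, null minus wild type, over all 17100 genes (vertical axis, genes per bin), with the differences of the 10 feedback genes as red lines whose heights only separate the names. The feedback genes lie between -0.15 (Etv5) and 0.27 (Spred1), inside the bulk of the distribution.

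Among the Sprouty genes, which encode inhibitors that are themselves phosphorylated after receptor activation, Spry1 and Spry2 had slightly higher means in the null pools. Spry1 had signals of 1.75, 2.20, 1.81 and 1.94 in null pools 1 to 4, against 1.71, 1.85, 1.80 and 1.78 in wild-type pools. Null pools 2 and 4 stood above the wild-type range, and null pools 1 and 3 lay within it. The difference was 0.14 ± 0.11 (SE), with a 95% interval of -0.10 to 0.39 and a limma adjusted p of 0.514. It was 0.03 with the Y-linked level as a covariate (limma adjusted p = 0.950). Spry2 had signals of 0.67, 1.03, 1.01 and 0.94 in null pools, against 0.73, 0.72, 0.72 and 0.88 in wild-type pools. All null pools but pool 1 were above every wild-type pool, and null pool 1 was below all of them. This gave a difference of 0.15 ± 0.10 (interval -0.08 to 0.38, limma adjusted p = 0.462).

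Spry2 has a second, dimmer probe, on which the difference was larger in the main fit. Both are 60 bases long and lie on the minus strand of chromosome 14, with starts 516 bases apart. Their first 30 bases, 5′ to 3′, are shown because the probes gave different sizes of change for the same gene.
Spry2 brightest probe, mm7 chr14:100321854-100321913: caggaaacctttattgtaagtctctgattt
Spry2 dimmer probe, mm7 chr14:100322370-100322429: ccccccttttaacacatatgcaaccaacta
The dimmer probe had signals of -3.14, -2.56, -2.40 and -2.36 in null pools 1 to 4, against -3.51, -2.98, -3.13 and -3.05 in wild-type pools. All pools were well above background on it, each null pool was above the wild-type pool of its own number, and null pool 1 alone lay inside the wild-type range. The difference was 0.55 ± 0.19 (interval 0.11 to 0.99), with a limma adjusted p of 0.160 over all measured probes. Blocked by replicate number, the adjusted p was 0.0284, in a fit that called 11.9% of all measured probes. With the Y-linked level as a covariate the difference was 0.26 (adjusted p = 0.585). Under normexp background correction it was 0.14 (limma adjusted p = 0.995), below the 0.20 of the brightest probe. In the deposited value table it was 0.41, against 0.19 on the brightest probe. The gap between the probes was set against genotype with an exact two-sided permutation test over the 4 against 4 pools. The shift on the brightest probe minus that on the dimmer one was -0.40 (exact p = 0.0571, and 0.229 after adjustment over the 8 probe pairs of the feedback genes). The smallest p that this design allows is 0.0286.

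Spry4 had the widest interval of the 10 genes, and its signal followed the slide. It had signals of -4.09, -4.44, -2.86 and -2.89 in null pools 1 to 4, against -3.93, -4.16, -2.81 and -2.97 in wild-type pools. Pools 3 and 4 stood far above pools 1 and 2 in both groups, and within each slide null and wild type overlapped. The slide difference, slide 2 minus slide 1, was 1.27 (limma adjusted p = 3.33e-04), and the genotype difference -0.10 ± 0.46 (adjusted p = 0.942). The wide interval and this SE come from the fit without a block and hold the spread between slides. Blocked by slide, the same difference of -0.10 had a limma unadjusted p of 0.363 (adjusted 0.578). Blocked by replicate number the unadjusted p was 0.221 (adjusted 0.362). The genotype difference was -0.22 on slide 1 and 0.016 on slide 2, so its sign is not settled. A second Spry4 probe was not well above background on any array and gives no value.

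The Spred genes encode membrane-anchored relatives of the Sprouty proteins that hold back the activation of Raf. Spred1 had the smallest p of the 10 genes. Its signals were 1.31, 1.45, 1.52 and 1.49 in null pools 1 to 4, against 1.16, 0.95, 1.35 and 1.23 in wild-type pools. All null pools but pool 1 were above every wild-type pool, and null pool 1 lay just under wild-type pool 3. The difference was 0.27 ± 0.10 (interval 0.04 to 0.50), a fold of 1.21 with an interval of 1.03 to 1.42. The limma adjusted p was 0.178 (unadjusted 0.0279), and it was 0.0743 in the fit blocked by slide and 0.0731 in the fit blocked by replicate number. In these fits 8.01% and 13.7% of all genes were called. The difference was 0.32 on slide 1 and 0.22 on slide 2, and 0.35 with the Y-linked level as a covariate.

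The other Spred1 probes did not show the same shift. One had signals of -4.08, -4.00, -4.34 and -4.14 in null pools, against -3.91, -4.06, -4.21 and -4.00 in wild-type pools, a difference of -0.09 ± 0.10 (limma adjusted p = 0.676). Its shift and that of the brightest probe were apart by 0.36 (exact two-sided p = 0.0857, adjusted 0.229). The last Spred1 probe read between -2.97 and -2.65 in the null pools, against -2.68, -2.79 and -2.99 in wild-type pools 1 to 3 and -8.19 in wild-type pool 4, where it was not well above background. That single reading sets its mean difference of 1.36 ± 1.15 (SE), which was 0.022 without wild-type pool 4. For Spred2 both measured probes gave small differences. The brightest read 0.19, -0.09, 0.38 and 0.15 in null pools, against 0.08, -0.05, 0.36 and 0.03 in wild-type pools (0.05 ± 0.13, limma adjusted p = 0.882). The difference was 0.04 ± 0.15 on the dimmer probe.

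The promoter of Spred1, from 250 bases before to 50 bases after the transcript start in RefSeq (GRCm38.p6, plus strand, chr2:117120821-117121120), is shown because this gene had the smallest p. It holds none of the motifs searched.
Spred1: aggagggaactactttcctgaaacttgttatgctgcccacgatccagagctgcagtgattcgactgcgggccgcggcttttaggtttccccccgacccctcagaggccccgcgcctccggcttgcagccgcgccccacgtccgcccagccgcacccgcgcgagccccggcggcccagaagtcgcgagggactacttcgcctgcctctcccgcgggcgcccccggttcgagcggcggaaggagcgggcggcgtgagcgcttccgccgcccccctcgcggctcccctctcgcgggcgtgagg
The motifs, read on both strands, were TGAATG, the core bound by the repressor Capicua that ERK removes from its targets, GGAAGT and CCGGAA, letters bound by ETS factors, and TGANTCA, the AP-1 letters bound by Fos and Jun. Over 32851 promoters of the same length, 12.7% held TGAATG, 23.8% GGAAGT, 14.9% CCGGAA and 7.81% TGANTCA. Of the 10 genes 7 had an entry, with 8 promoters in all, of which 2 held TGAATG (Dusp6 and the second Etv5 start), 2 held GGAAGT (Spred2 and the second Etv5 start), 1 held CCGGAA (Spry2) and 0 held TGANTCA. A match describes these letters only and does not show that a factor binds there.

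The genes for the ERK phosphatases both had higher means in the null pools, by less than 0.2 on their brightest probes. Dusp6, a cytoplasmic phosphatase whose transcript closely follows FGF signalling, had signals of 4.23, 4.70, 4.56 and 4.63 in null pools 1 to 4, against 4.13, 4.43, 4.36 and 4.45 in wild-type pools. Null pools 2 to 4 exceeded every wild-type pool, and null pool 1 lay second from the bottom of all 8. The difference was 0.19 ± 0.12 (interval -0.10 to 0.47), with a limma adjusted p of 0.458, and 0.0729 when blocked by replicate number. The difference was 0.03 with the Y-linked level as a covariate. Dusp4, a nuclear phosphatase, had signals of 2.26, 2.43, 2.49 and 2.44 in null pools, against 2.25, 2.25, 2.32 and 2.26 in wild-type pools. Null pool 1 lay inside the narrow wild-type range and the other 3 lay above it. The difference was 0.13 ± 0.07 (interval -0.04 to 0.30, limma adjusted p = 0.360).

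A second Dusp4 probe separated the groups. Both Dusp4 probes are 60 bases long and lie on the plus strand of chromosome 8, with starts 2761 bases apart, and the dimmer one is upstream. Their first 30 bases, 5′ to 3′, are shown because this pair had the smallest p among the probe pairs.
Dusp4 brightest probe, mm7 chr8:33583106-33583165: tcaagggacttcagtaagataacaatgcaa
Dusp4 dimmer probe, mm7 chr8:33580345-33580404: aataacggcggtttccgctgccagagaaga
The dimmer probe had signals of 0.30, 0.48, 0.24 and 0.08 in null pools 1 to 4, against -0.23, -0.17, -0.06 and -0.20 in wild-type pools. Every null pool was above every wild-type pool, which held for 1 of the 17 measured probes of the feedback genes and for 15.7% of all measured probes. The difference was 0.44 ± 0.10 (interval 0.22 to 0.67), a fold of 1.36. Its limma adjusted p over all measured probes was 0.05004, just over the threshold. It was 0.0369 in the fit blocked by slide, in which 7.09% of all measured probes were called, 0.0377 in the fit blocked by replicate number and 0.0387 without null pool 4, and between 0.0513 and 0.995 under the other alternatives. Among all measured probes 3.46% were called, against 0 of these 17, and 3 of the 17 had an unadjusted p under 0.05, against 20.4% of all measured probes. The shift on the brightest probe minus that on the dimmer one was -0.31 (exact two-sided p = 0.0286, the smallest the design allows, and 0.229 adjusted over the 8 pairs). The files do not say which transcript or exon each probe reads.

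**Figure D3:**
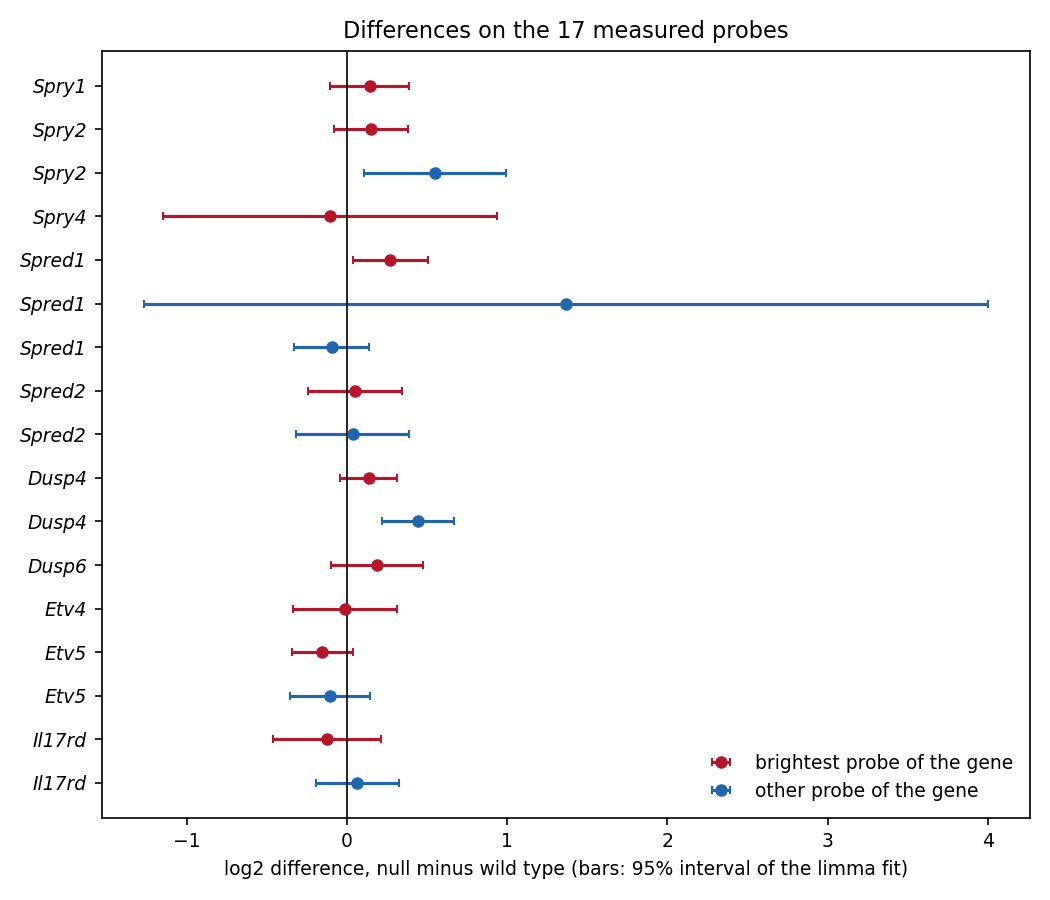
Log2 difference, null minus wild type (horizontal axis), with its 95% interval for each of the 17 measured probes, red for the brightest probe of a gene and blue for the others. The intervals of the dimmer Spry2 and Dusp4 probes and of the brightest Spred1 probe lie above 0, and the widest belongs to the Spred1 probe with 1 wild-type reading of -8.19.

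Etv4 and Etv5 both had slightly lower means in the null pools, and neither passed the test. Etv4 had signals of -0.40, -0.11, -0.35 and -0.66 in null pools 1 to 4, against -0.42, -0.18, -0.61 and -0.25 in wild-type pools. The groups covered nearly the same range, with a difference of -0.01 ± 0.14 (interval -0.33 to 0.31, limma adjusted p = 0.979). Etv5 had signals of -2.50, -2.54, -2.38 and -2.48 in null pools, against -2.18, -2.44, -2.37 and -2.28 in wild-type pools. Each null pool was below the wild-type pool of its own number, by between 0.0054 and 0.31, but null pool 3 lay inside the wild-type range. The difference was -0.15 ± 0.08 (interval -0.34 to 0.03), with a limma adjusted p of 0.341. On the dimmer Etv5 probe it was -0.11 ± 0.11 (adjusted p = 0.649), again lower in 4 of 4 pairs. With the Y-linked level as a covariate the difference was -0.05 on the brightest Etv5 probe and -0.03 on the dimmer one. The remaining Pea3 group gene, Etv1, was counted among the relatives and differed in sign. It had signals of -0.25, -0.39, -0.19 and -0.31 in null pools 1 to 4, against -0.42, -0.62, -0.43 and -0.44 in wild-type pools. Its groups did not overlap, and the difference was 0.19 ± 0.08 (SE, unadjusted p = 0.0385, limma adjusted p = 0.212).

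Etv5 has 2 promoters in RefSeq. The second (GRCm38.p6, minus strand, chr16:22438319-22438618) is printed because it was the only one of the 8 promoters with more than 1 kind of motif. Capitals mark TGAATG, or CATTCA on the other strand, and GGAAGT.
Etv5: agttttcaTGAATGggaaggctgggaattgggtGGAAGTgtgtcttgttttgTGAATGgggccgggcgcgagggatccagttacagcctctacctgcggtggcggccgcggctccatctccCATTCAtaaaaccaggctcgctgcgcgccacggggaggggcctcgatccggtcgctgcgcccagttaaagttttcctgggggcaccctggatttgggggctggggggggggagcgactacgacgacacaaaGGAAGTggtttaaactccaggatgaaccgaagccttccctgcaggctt
It holds 3 copies of TGAATG and 2 of GGAAGT, and 0.17% of all promoters held at least 3 copies of TGAATG. As this promoter was picked from the 8 for its motifs, that share only describes it and is no test. The first Etv5 promoter holds none of the motifs. The array values do not say which start was used.

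Il17rd, the membrane inhibitor, had signals of -1.24, -1.07, -0.70 and -0.64 in null pools 1 to 4, against -0.86, -0.92, -0.65 and -0.72 in wild-type pools. Null pools 1 and 2 were the lowest of the 8 and null pool 4 was the highest. The difference was -0.13 ± 0.15 (limma adjusted p = 0.702). It was -0.27 on slide 1 and 0.014 on slide 2, and slide 2 was higher than slide 1 by 0.34 (limma adjusted p = 0.0347). A second probe gave 0.07 ± 0.11, and the last was not well above background on any array. A further probe with an older name of this gene was not counted as a member, and its difference was 0.05 (limma adjusted p = 0.866).

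Comparison within same-numbered pairs gave the same picture. All 4 null pools were above their wild-type partners for 4 genes (Spry1, Spred1, Dusp4 and Dusp6), against 22.4% of all genes, and below them for 1 (Etv5), against 24.1% of all genes. Pair 1 had the smallest excess of null over wild type in Spred1, Dusp4 and Dusp6, and for Spry2 its null pool was the lower. The slide difference was called for 2 of the 10 genes (Spry4 and Il17rd), against 12.4% of all genes, and slide 2 was higher for 8 of them. No genotype difference was apart between slides at an unadjusted p under 0.05 (0 of 10 genes, against 2.2% of all genes).

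**Figure D4:**
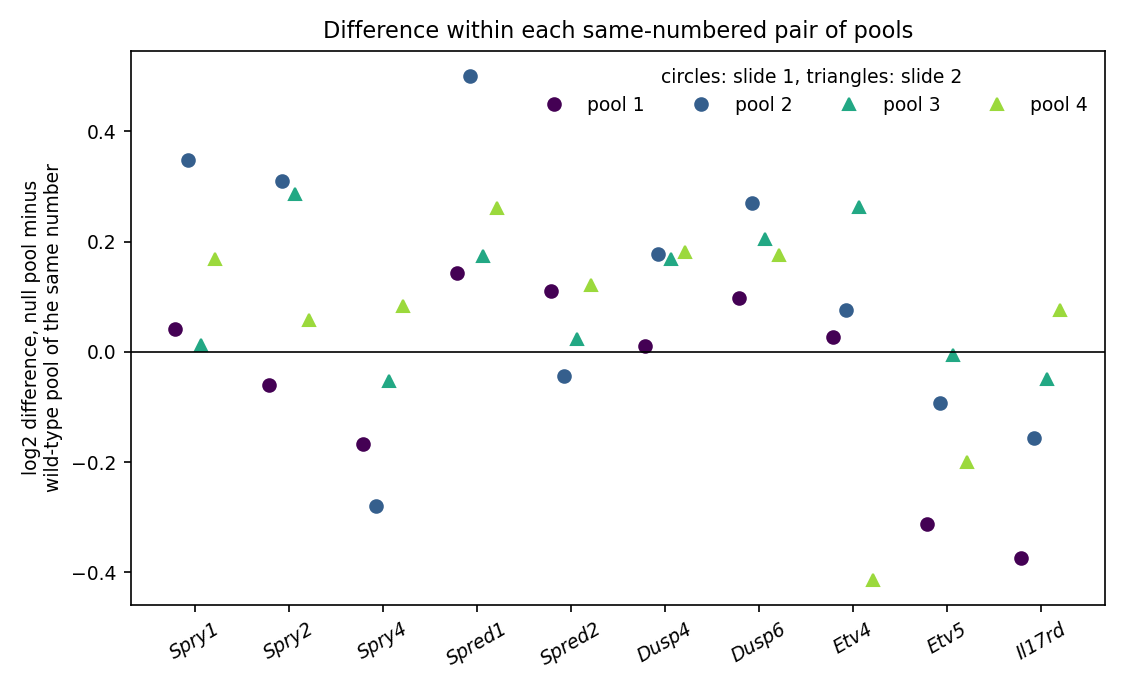
Log2 difference between the null pool and the wild-type pool of the same number (vertical axis) for the brightest probe of each feedback gene, coloured by number, with circles on slide 1 and triangles on slide 2. All 4 points lie above 0 for Spry1, Spred1, Dusp4 and Dusp6 and below 0 for Etv5, and Etv4 ranges from -0.41 to 0.26.

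Over the rest of the pathway few genes were called, though at a higher share than over all genes, a difference that was not tested. Of 71 other genes tested in 5 lists limma called 5 higher and 2 lower, which is 9.86%, beside 4.2% of all genes (2.85% higher and 1.35% lower). Under normexp and within either slide alone limma called 0 of all genes, so each call given for these lists and the marker lists was lost there. Of 12 genes tested in the list of FGF ligands (10 more were not measured), 1 was higher, 0 were lower and the list median was 0.11. An unadjusted p under 0.05 was found for 5 of the 12, against 20.7% of all genes. Fgf11, Fgf12, Fgf13 and Fgf14 of this list are FGF homologous factors, which act inside the cell and are not secreted ligands. The called gene was Fgf11. It had signals of -2.06, -1.62, -2.17 and -2.48 in null pools 1 to 4, against -3.70, -4.01, -3.96 and -3.85 in wild-type pools, and rose 3.48-fold (limma adjusted p = 0.00424). Every null pool lay above the wild-type range. The difference of 1.80 on the log2 scale was 1.33 in the deposited value table and 0.80 under normexp background correction (limma adjusted p = 0.996). Fgf10, the secreted ligand of limb and pharyngeal mesoderm, had a difference of 0.34 (limma adjusted p = 0.0803, 0.0468 when blocked by slide and 0.0344 when blocked by replicate number). For this and each later value from a block, the slide block called 8.01% of all genes and the replicate block 13.7%.

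None of the 8 receptors and co-receptors tested was called, with a median of 0.11 and 2 at an unadjusted p under 0.05 (20.7% of all genes). The smallest p was that of Fgfr2, a receptor for ligands of the Fgf10 kind, at 0.16 ± 0.06 (SE, limma adjusted p = 0.179). Of 24 adaptors and kinases of the Ras-ERK cascade 1 was higher, 0 were lower and the median was 0.04 (3 at an unadjusted p under 0.05). The adaptor gene Shc1 had signals of -0.24, -0.05, -0.16 and -0.22 in null pools, against -0.56, -0.48, -0.58 and -0.49 in wild-type pools, and rose 1.28-fold (limma adjusted p = 0.0379). The groups were separate, but the call was lost in each of the 8 fits without a pool (adjusted p 0.0547 to 0.116). It was also lost with the Y-linked level as a covariate (limma adjusted p = 0.149). When blocked by replicate number, a fit that called 13.7% of all genes, Hras was also called, at -0.29 (limma adjusted p = 0.0466, against 0.470 without the block).

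Of 12 relatives of the feedback genes 1 was higher and 1 lower, with a median of 0.10. An unadjusted p under 0.05 was found for 4 of them, against 20.7% of all genes. Dusp10, a phosphatase that prefers the p38 and JNK kinases over ERK, had signals of -2.68, -2.75, -2.74 and -2.70 in null pools, against -3.28, -3.22, -3.34 and -3.21 in wild-type pools. The groups were far apart for their narrow spread, and the rise was 1.46-fold (limma adjusted p = 0.00707). It stayed called in each of the 8 fits without a pool. The call was lost with unscaled arrays (limma adjusted p = 0.110), median scaling (0.0854) and the Y-linked covariate (0.0567), and under normexp background correction, where the difference was 0.17 against 0.54. Dusp9, an X-linked ERK phosphatase, had signals of 2.23, 2.17, 2.08 and 2.06 in null pools, against 2.58, 2.72, 2.43 and 2.50 in wild-type pools. It fell by 0.42 ± 0.09 on the log2 scale (limma adjusted p = 0.0399). The call was lost without any 1 pool (adjusted p 0.0612 to 0.121) and with the Y-linked level as a covariate (0.109, difference -0.47). Blocking by replicate number also brought in Il17ra, which was called at -0.30 (limma adjusted p = 0.0376, against 0.0683 without the block).

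Of 15 genes tested in the list of early genes that respond to ERK 2 were higher and 1 lower, with a median of -0.04 (3 at an unadjusted p under 0.05). The list also holds Srf, Elk3 and the Capicua gene Cic, which encode regulators of such genes. Ier3, an early response gene that can prolong ERK activity, had signals of 0.17, 0.45, -0.33 and -0.41 in null pools, against -2.92, -2.79, -2.82 and -2.88 in wild-type pools, and rose 7.06-fold (limma adjusted p = 0.00131). The difference of 2.82 on the log2 scale was 2.45 in the deposited value table and 1.91 under normexp (limma adjusted p = 0.340). Fos, a subunit of AP-1, had signals of -4.42, -4.59, -4.49 and -4.57 in null pools, against -5.58, -5.52, -5.23 and -5.40 in wild-type pools (0.91 ± 0.09, limma adjusted p = 0.00468), but stood at -0.054 under normexp background correction. Ccnd1, cyclin D1 of the G1 phase, had signals of 2.40, 2.50, 2.34 and 2.44 in null pools, against 2.91, 2.94, 2.92 and 2.82 in wild-type pools, and fell by 0.48 ± 0.07 (SE, limma adjusted p = 0.0143). Leaving out a pool ended the call in 5 of 8 fits, and so did the Y-linked level as a covariate (limma adjusted p = 0.0567). These 3 genes also respond to pathways other than ERK.

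**Figure D5:**
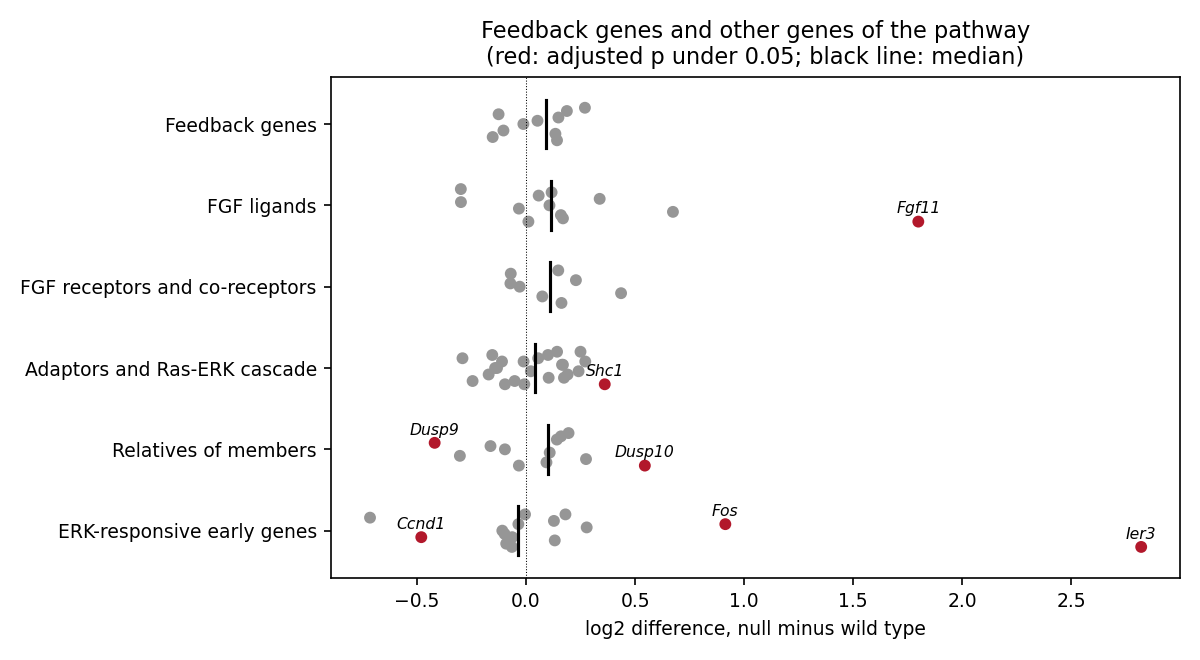
Log2 difference, null minus wild type (horizontal axis), for the 10 feedback genes and for each gene tested in 5 lists of the pathway, red where the limma adjusted p is under 0.05, with black lines at the list medians. The feedback genes have no red point, and the list medians lie between -0.04 and 0.11.

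The regions where the feedback genes are known to be strong were checked with marker lists. Of 39 region and cell type markers tested limma called 0 higher and 2 lower, which is 5.13%, near the 4.2% of all genes called. Not tested were 2 markers of the midbrain and hindbrain boundary and 1 of the forebrain. The tailbud and presomitic mesoderm markers had a median of 0.07 with 0 of 7 called by limma (1 at an unadjusted p under 0.05, against 20.7% of all genes), and the smallest p was that of Cyp26a1 (0.29 ± 0.10, limma adjusted p = 0.138). The markers of the boundary between midbrain and hindbrain had a median of 0.06 with 0 of 4 called (1 at an unadjusted p under 0.05). Wnt1, its signalling factor, stood at 0.34 (adjusted p = 0.0774, and 0.0313 when blocked by replicate number). All 4 forebrain markers tested had lower means in the null pools, and Lhx2 was called. It had signals of 2.31, 2.11, 2.27 and 2.17 in null pools, against 2.71, 2.72, 2.65 and 2.52 in wild-type pools (-0.44 ± 0.08, limma adjusted p = 0.0304), and was no longer called in 7 of the 8 fits that left out a pool. With the Y-linked level as a covariate Lhx2 was not called either (limma adjusted p = 0.113).

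In the pharyngeal arches and limb bud 0 of 7 markers were called by limma, with 2 at an unadjusted p under 0.05. Dlx1, a homeobox gene of the first arches, had the smallest p (-0.69 ± 0.16, limma adjusted p = 0.0534, 0.0213 when blocked by slide and 0.0362 when blocked by replicate number). All 5 heart markers had higher means with 0 called (2 at an unadjusted p under 0.05), among them Myh7 (0.35, limma adjusted p = 0.145, and 0.0248 when blocked by replicate number). Of 4 primitive blood markers, all with lower means, 1 was called. Klf1, a factor of red cells, had signals of 0.49, 0.25, 0.62 and 1.08 in null pools, against 1.55, 1.70, 1.42 and 1.30 in wild-type pools, and fell by 0.88 ± 0.18 (SE, limma adjusted p = 0.0377). Leaving out a pool ended the call in 7 of 8 fits, and so did the Y-linked level as a covariate (limma adjusted p = 0.0683). Gata1, another red cell factor, stood at -0.73 ± 0.17 (SE, limma adjusted p = 0.0525, and 0.0479 when blocked by slide). Yolk sac endoderm and endothelium had 0 of 4 markers called each and 0 at an unadjusted p under 0.05, with Apoa4 (0.77 ± 0.59, well above background in 4 null and 2 wild-type pools) and Pecam1 (0.25 ± 0.14) at the smallest p (limma adjusted p = 0.523 and 0.366). The part of these shifts in the values of the feedback genes was not tested.

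The genes most like Spred1 across the arrays were found by Pearson's r of the values with each group's mean removed, over 8 arrays and 13874 genes with a plain symbol. They were Hlf (r = 0.984), a transcription factor gene of the PAR bZIP family, Nmt2 (0.984), an N-myristoyltransferase gene, and Nrip3 (0.967). None was called, with differences of 0.21, 0.33 and 0.09 (limma adjusted p = 0.503, 0.231 and 0.826). The arrays share slides and the genes were picked as the highest of many, so these values only describe likeness.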

How the data were processed

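Per the file headers, the arrays are a whole mouse Agilent design (probe positions on mm7) read in 1 colour by Feature Extraction 9.5.3.1, and the deposited processed intensity has a fitted spatial background subtracted and is not scaled between arrays. The deposited mean and local background intensity served only for normexp (offset 50). The authors' deposited value table holds log2 values, for 27108 probes and served as an alternative. Its column medians were 9.46, 9.46, 9.47 and 9.47 in null pools 1 to 4 and 9.45, 9.44, 9.46 and 9.45 in wild-type pools, and each column correlated with the log2 signal at 0.988 or more, which settles the direction but not the exact scale or the normalization.

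Control spots and flagged outliers were dropped, spots of a probe averaged as log2 and each array's 75th percentile subtracted. A probe was kept if it was well above background on 4 or more of the 8 arrays (25555 probes). The brightest kept probe stood for a gene, with at least 2 values per group (17100 genes). This filter could favour genes high in 1 group, and all 10 feedback genes passed it. Names were updated through RefSeq (GRCm38.p6): 22951 probes by accession, 6659 by symbol and 3109 by an older name, while 8455 kept the file's name. Feedback genes used only probes that carried their name in the files.

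Null and wild-type pools were compared in R 4.3.3 with limma 3.58.1 (lmFit and eBayes, genotype only, Benjamini-Hochberg over all genes), and probe pairs with exact permutation tests in scipy 1.17.1. The steps were tested on simulated data. Pools of the same number deviated together (r across genes 0.557, 0.635, 0.523 and 0.426). The main fit and the permutation tests nevertheless leave the pairs out. Same-numbered pools were compared as pairs beside them, and values blocked by replicate number or slide are given where they change a call. Slides and numbers are nested. The alternatives were the scaling (median, none, quantile), normexp, no filter on dim probes, the deposited table, all kept probes, slide or replicate number as a block, each slide alone, each pool left out and, added later, a Y-linked level as covariate. The genes named outside the feedback genes are Arid3b, up to 4 called genes with the smallest adjusted p in each list (or the smallest p where none was called) and the 3 genes most like Spred1. Genes called only with a block (Fgf10, Gata1, Hras, Il17ra) and Etv1 were named after their values were seen. The feedback genes and the lists were chosen with earlier results of these data known. Sequences come from the array files and from RefSeq's promoter table. The number of arrays limits the precision.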

Additional observations from a re-analysis of the deposited data

Results flagged for a closer look

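Among 58 groups of 4 values of the probes considered here, 4 held a pool that stood far from the other 3 by Dixon's test at its 95% critical value, and chance marks about 1 in 20 such groups. The dimmer Spred1 probe read -8.19 in wild-type pool 4, against -2.99 to -2.68 in the other wild-type pools. The brightest Dusp4 probe read 2.32 in wild-type pool 3, against 2.25 to 2.26 in the others. The brightest Spry2 probe read 0.884 in wild-type pool 4, against 0.723 to 0.726 in the others. The brightest Arid3b probe read 2.48 in null pool 4, against 1.83 to 1.89 in the other null pools.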

How the results depend on the processing

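Of all genes 718 were called, against 204 with median scaling (52.0% of them higher), 157 with no shift between arrays (79.6% higher), 164 with no filter on dim probes (83.5% higher), 463 with the deposited table, 1370 with slide as a block (58.8% higher), 2343 with the replicate number as a block (56.8% higher) and 153 with the Y-linked level as a covariate, beside 67.8% higher for the main count. Without a pool the count was 93 to 626. Limma called 0 under normexp (737 at an unadjusted p under 0.05) and 0 within slide 1 or slide 2 (1880 and 2879 at an unadjusted p under 0.05), where 2 pools per group remain. Of the 10 feedback genes 0 were called under each of the 20 alternatives, with 0 to 4 at an unadjusted p under 0.05, and their median difference stayed between 0.0025 and 0.136. The replicate block changed no call of a feedback gene's brightest probe. Signs turned only among differences that did not pass the test, and for Fos, which was -0.054 under normexp, and the cause was not tested. Spry4 stood at 0.054 with the Y-linked level and 0.016 on slide 2 (-0.34 to 0.18 without a pool). Spred2 stood at -0.039 with median scaling and -0.019 with no shift (-0.022 to 0.14 without a pool), Etv4 at 0.051 on slide 1 (-0.10 to 0.081 without a pool) and Il17rd at 0.014 on slide 2. The dimmer Il17rd probe stood at -0.026, -0.0059, -0.027, -0.21, -0.017 and -0.032 with median scaling, no shift, quantile, normexp, the deposited table and slide 2 alone (-0.013 to 0.16 without a pool). The dimmer Spred2 probe stood at -0.055, -0.036, -0.023, -0.18 and -0.072 under the first 5 of these (-0.044 to 0.16 without a pool). The Spred1 probe with the outlying reading stood at -0.057 under normexp.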
